A study of Mus musculus with 6 samples.

Results

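The immunoglobulin heavy chain V segments (Ighv) were chosen by level: they were the rows of the expression table with the biotype IG_V_gene, a symbol starting with Ighv and a mean of at least 1 FPKM (fragments per kilobase of gene length, scaled to library size) over the 6 neutrophil libraries. The rule kept 76 of 113 Ighv rows with that biotype, out of 54532 genes in the table. RNA was sequenced from bone marrow neutrophils of C57BL/6J mice, 3 libraries from wild-type (WT) and 3 from progranulin knock out (PGRN KO) animals, and every culture was challenged with live Candida albicans for 6 h at a multiplicity of infection of 1:1 by the sample labels, whereas a figure legend of the study states a different ratio. PGRN, encoded by Grn, is a secreted glycoprotein that also acts in lysosomes. Neutrophils were taken from marrow with magnetic beads against Ly-6G, so other marrow cells could remain. The WT and PGRN KO mice came from different suppliers by the study's methods, so genotype and origin cannot be told apart here, and the number of mice behind a culture is not stated. The p-values therefore measure the spread between these libraries, which may be technical.

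A heavy chain variable region is assembled in developing B cells, when recombination joins V, D and J segments into an exon that is spliced to a constant gene such as Ighm, Ighg2c or Igha. Each B cell and each plasma cell, the antibody-secreting stage, normally expresses the V segment of its own rearranged allele, so the spread of transcripts over V segments in a tissue describes which rearrangements are expressed there. The number after Ighv gives the V family, a group of segments with similar sequence. Within a family, the number after the hyphen broadly follows the order along the locus. Neutrophils do not rearrange this locus, and bone marrow is a known site of long-lived plasma cells.

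The V segments of a family differ by few bases, which bears on every value below. The windows shown here are 150 bases of coding sequence, 5′ to 3′, from GENCODE M21 transcripts on GRCm38. All lie on the minus strand of chromosome 12 in the exon that holds the body of the V segment, and all end near where the V segment joins D. The 3 members of family 3 are shown because they include the most abundant segment of PGRN KO and a segment at 0 in WT. Capitals mark the closing tgtgcaaga, which opens with the codon of the conserved cysteine before the third complementarity-determining region:
Ighv3-6 (chr12:114288154-114288303): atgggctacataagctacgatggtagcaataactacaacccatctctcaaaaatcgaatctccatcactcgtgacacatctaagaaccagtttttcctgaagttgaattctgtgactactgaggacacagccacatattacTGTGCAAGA
Ighv3-1 (chr12:113964390-113964539): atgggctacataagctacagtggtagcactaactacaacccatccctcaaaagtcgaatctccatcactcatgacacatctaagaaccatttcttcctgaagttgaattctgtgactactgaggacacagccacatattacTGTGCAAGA
Ighv3-8 (chr12:114322376-114322525): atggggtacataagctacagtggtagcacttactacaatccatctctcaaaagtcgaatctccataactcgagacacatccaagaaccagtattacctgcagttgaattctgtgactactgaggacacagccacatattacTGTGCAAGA
Over these windows Ighv3-6 differed from Ighv3-1 at 8 bases and from Ighv3-8 at 13 bases. Ighv1-26 and Ighv1-18 are shown because both rose with large folds while differing at 2 of the 150 bases, which the capitals mark:
Ighv1-26 (chr12:114788372-114788521): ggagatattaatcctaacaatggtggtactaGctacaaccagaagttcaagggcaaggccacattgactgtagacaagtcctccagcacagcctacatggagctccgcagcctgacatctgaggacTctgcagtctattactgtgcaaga
Ighv1-18 (chr12:114682632-114682781): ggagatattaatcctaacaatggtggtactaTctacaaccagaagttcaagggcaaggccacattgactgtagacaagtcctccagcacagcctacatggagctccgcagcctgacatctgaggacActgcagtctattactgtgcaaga
Ighv1-77 and Ighv1-81 are shown because they were both among the leading WT segments, and the former alone was called lower. Capitals mark the 9 bases at which they differ:
Ighv1-77 (chr12:115861867-115862016): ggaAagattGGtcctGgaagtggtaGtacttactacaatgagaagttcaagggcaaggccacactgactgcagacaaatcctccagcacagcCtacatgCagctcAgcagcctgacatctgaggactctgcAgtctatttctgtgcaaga
Ighv1-81 (chr12:115920279-115920428): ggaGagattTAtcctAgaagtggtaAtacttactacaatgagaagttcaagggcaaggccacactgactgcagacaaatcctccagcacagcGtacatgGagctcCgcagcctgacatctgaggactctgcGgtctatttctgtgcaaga
Over whole transcripts, the median identity of a member to its closest Ighv segment, pseudogenes included, was 95.5%, with a range of 79.8% to 99.2%, and 43 of the 76 members had another segment at 95% identity or more. The closest segment belonged to the same family for 75 members. The longest run of identical bases shared with any other Ighv segment had a median of 89 bases, and 2 members shared a run of 150 bases or more. Reads that fit several segments may have been divided or dropped in the authors' counting, so the level of a single segment is uncertain.

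Grn, the targeted gene, had 168.4, 161.3 and 166.1 FPKM in the WT libraries, and 0.242, 0.206 and 0.747 in PGRN KO, as the labels say. The libraries held between 17087344 and 18821091 fragments on genes. The neutrophil markers S100a8, S100a9, Ly6g, Csf3r, Cxcr2, Mmp8, Retnlg and Itgam were all present. Csf3r and Mmp8 fell (adjusted p = 0.034 and 0.037 by limma), and the other 6 did not pass the test. Of 11 B cell markers, 4 were high enough to test. Cd79a, Cd79b and Blnk rose, Cd22 did not pass the test, and the defining genes Pax5 and Ms4a1 held between 0 and 3 fragments over the 3 libraries of a genotype. The summed B cell list was 2.08 to 3.35 FPKM in the WT libraries, and 4.39 to 5.63 in PGRN KO, and the summed list of 10 plasma cell markers was 92.4 to 99.0 and 149.8 to 161.6. Both sums, like the V segments, were higher in PGRN KO, and their part in the results below was not tested. Among the plasma cell markers, 5 were called higher and 1, Prdm1, lower. Jchain went from a mean of 22.0 FPKM in WT to 72.0 in PGRN KO. Xbp1, at 47.9 and 53.8, and Sdc1, at 20.2 and 20.5, did not pass the test. Cd79a was the largest of the B cell list, at 1.88 and 3.37. In bulk RNA, more cells of a type and more RNA per cell cannot be told apart.

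Ighv transcripts were more abundant in PGRN KO than in WT. The 76 segments summed to 316.8, 297.1 and 271.3 FPKM in WT, a mean of 295.1 ± 22.8 (SD, n = 3), and to 964.8, 891.4 and 1081 in PGRN KO, a mean of 979.2 ± 95.8 (SD, n = 3). The libraries of the genotypes did not overlap, and the ratio of the means was 3.32. The same segments held 1717 to 1988 fragments in a WT library and 5936 to 7789 in a PGRN KO library. Without Ighv3-6, the most abundant segment of PGRN KO, the ratio was 3.08.

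The increase covered most segments. By limma on log2(FPKM + 1), 57 of 76 members were higher in PGRN KO at an adjusted p under 0.05, 2 were lower and 17 did not pass. Over all 14807 genes tested, 7.94% were higher and 9.95% lower. The 3 libraries of each genotype did not overlap in 60 members with higher and 2 with lower values, beside 18.1% and 19.6% of all genes. The median log2 fold change of the members was 1.67, with 0.003 over all genes tested. Of the 157 genes with a log2 fold change of at least 1, 58 were Ighv members, and of the 74 with at least 2, 26 were.

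The rule itself favoured segments that are abundant in either genotype, so these counts are a description of the set. In WT, 55 members averaged at least 1 FPKM, and of these 38 were higher and 2 lower. Another 21 members were under 1 FPKM in the WT libraries, and passed the rule through their PGRN KO values, and 19 of them were called higher. At the edge of the rule, Ighv1-62-2 averaged 0.997 FPKM and was left out, while Ighv1-43 averaged 1.21 and was kept. The 37 rows under the limit comprised 17 at 0 in every library, 2 too low to test and 18 that were tested, of which 3 were called higher.

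Replicates spread more in WT, where segments held fewer fragments, than in PGRN KO. The median coefficient of variation of a member was 51.0% in WT and 22.1% in PGRN KO. In WT, 16 members were at 0 in at least 1 library. Apart from Ighv1-18, these averaged under 1 FPKM in WT and passed the rule through their PGRN KO values, so zeros on the WT side were largely set by the choice of members.

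**Figure D1:**
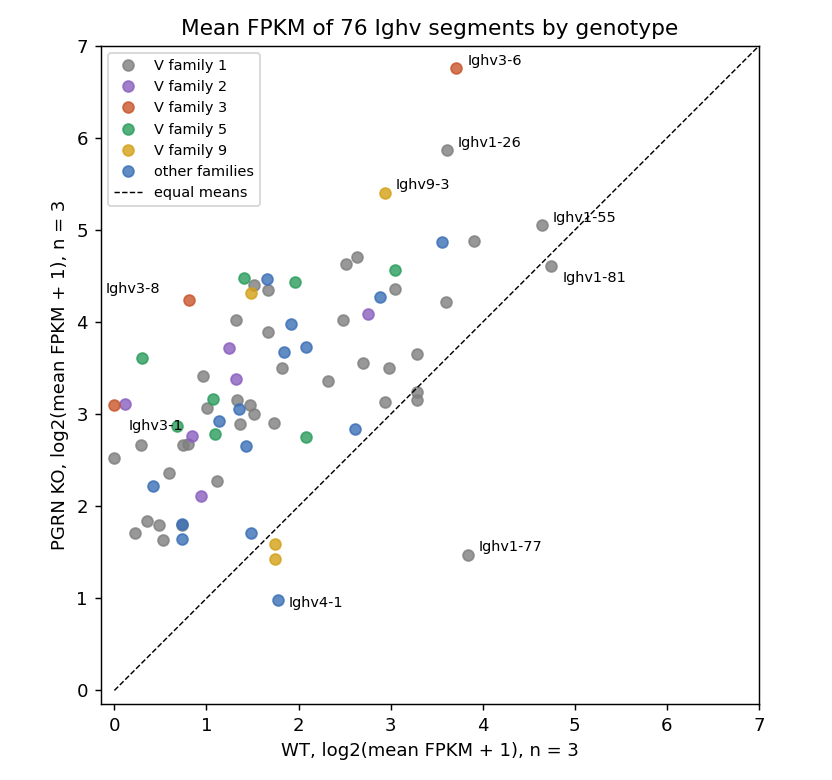
Mean FPKM of each of the 76 Ighv segments in WT (x axis) and PGRN KO (y axis), both as log2(mean FPKM + 1) over 3 libraries, colored by V family, with a dashed line at equal means. Most points lie above the line, and Ighv1-77 lies farthest below it.

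Family 3 showed the largest ratio of PGRN KO to WT of the 12 families, by mean summed FPKM. Its 3 members summed to 11.8, 10.1 and 16.7 FPKM in the WT libraries, and to 129.2, 124.8 and 143.7 in PGRN KO, a ratio of means of 10.3. All 3 members rose, although Ighv3-8 and Ighv3-1 passed the rule through their PGRN KO values. Ighv3-6 had 11.1, 8.74 and 16.5 FPKM in the WT libraries, and 100.7, 102.3 and 118.2 in PGRN KO, with a log2 fold change of 3.08 ± 0.20 (SE; adjusted p = 0.00037, limma). It ranked 5th among the segments in WT and was the most abundant in every PGRN KO library, where it alone made up 10.4% to 11.5% of Ighv FPKM, against 2.94% to 6.09% in WT.

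Ighv3-8 and Ighv3-1 were at or near 0 in WT. Both averaged under 1 FPKM there and passed the rule through their PGRN KO values, so a rise was favoured by that choice. Ighv3-8 had 0.747, 1.37 and 0.148 FPKM in the WT libraries, and 18.9, 17.1 and 17.8 in PGRN KO, the largest log2 fold change of any member at 3.49 ± 0.24 (SE; adjusted p = 0.00041, limma). Ighv3-1 had no fragment in any WT library and 9.60, 5.51 and 7.70 FPKM in PGRN KO. Against a floor of 3 fragments over the WT group, its level was at least 45.1-fold higher in PGRN KO. The longest run of identical bases that Ighv3-1 shared with another segment was 84 bases, with Ighv3-2, and that of Ighv3-8 was 50, with Ighv3-6.

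Family 1, the largest family with 40 members, was higher in level and lower as a share in PGRN KO. It summed to 210.0, 199.1 and 182.2 FPKM in the WT libraries, and to 478.2, 434.8 and 535.4 in PGRN KO, a ratio of means of 2.45. Of its 40 members 28 were higher, 1 was lower and 11 did not pass. Some of the 28 averaged under 1 FPKM in WT and passed the rule through their PGRN KO values. Ighv1-26, the second most abundant segment of PGRN KO, had 13.6, 9.22 and 10.8 FPKM in the WT libraries, and 61.8, 53.8 and 56.7 in PGRN KO, a log2 fold change of 2.27 ± 0.13 (SE; adjusted p = 0.00022, limma). Its near copy Ighv1-18 had 1.84, 0 and 2.66 FPKM in the WT libraries, and 14.0, 15.7 and 15.9 in PGRN KO (2.89 ± 0.45, adjusted p = 0.0077). Ighv1-42, with 1.85 ± 1.05 FPKM in the WT libraries, and 20.2 ± 4.77 in PGRN KO (SD, n = 3 each), rose by a similar log2 fold change of 2.93.

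Several segments that led WT changed less than the median member, whereas Ighv3-6 and Ighv1-26, ranked 5th and 6th in WT, changed more. Choosing segments by a high WT level favours smaller increases. Ighv1-81, the most abundant segment of WT by mean, had 30.02, 19.8 and 27.6 FPKM there and 25.4, 17.9 and 27.0 in PGRN KO. The genotypes overlapped, and the log2 fold change was -0.14 ± 0.20 (SE; adjusted p = 0.69, limma). As the total rose around it, its share of Ighv FPKM went from 9.48%, 6.67% and 10.2% in WT to 2.63%, 2.01% and 2.49% in PGRN KO. Ighv1-55, which ranked next in WT, had 26.4, 20.4 and 25.04 FPKM in the WT libraries, and 31.9, 31.05 and 33.5 in PGRN KO. This increase was small, at 0.42 ± 0.10 on the log2 scale (SE; adjusted p = 0.027, limma), and the call was lost without WT replicate 3 or any PGRN KO library (adjusted p = 0.056 to 0.077). Its share went from 8.14% ± 1.20 to 3.29% ± 0.19 (SD, n = 3 each). Ighv1-53 had 15.3, 9.57 and 8.65 FPKM in the WT libraries, and 19.1, 18.2 and 15.4 in PGRN KO, which did not overlap but did not pass the test (0.64 ± 0.20, adjusted p = 0.068). Without WT replicate 1 its adjusted p was 0.0095.

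The other abundant members of family 1 rose by between these extremes. Ighv1-9 went from 14.0 ± 3.61 to 28.5 ± 4.82 FPKM (n = 3 each, SD), which is 0.99 on the log2 scale and did not pass without WT replicate 1 (adjusted p = 0.051). Ighv1-64 went from 7.29 ± 1.49 to 19.6 ± 2.82, a log2 fold change of 1.32. Ighv1-82 and Ighv1-80, both at the far end of the locus and with 95.4% identity, rose by 2.14 ± 0.30 and 2.17 ± 0.26 on the log2 scale.

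Ighv1-77 went the other way. It had 11.9, 14.9 and 13.2 FPKM in the WT libraries, and 2.07, 1.63 and 1.63 in PGRN KO, so that every WT library was several-fold above every PGRN KO library, and the log2 fold change was -2.37 ± 0.10 (SE; adjusted p = 8.0e-05, limma). These values rested on 275 fragments in WT and 40 in PGRN KO, summed over 3 libraries each. Ighv1-77 ranked 4th in WT, with 4.55% ± 0.69 of Ighv FPKM, and 74th of 76 in PGRN KO, with 0.183% ± 0.032 (SD, n = 3 each). Segments close to it behaved otherwise. Ighv1-84, the closest over whole transcripts with 93.7% identity, did not pass the test. Over the window of 150 bases, Ighv1-76 differed from Ighv1-77 at 8 bases, and Ighv1-54 and Ighv1-81 at 9 each. None of these passed either, although Ighv1-76 was higher in PGRN KO without overlap (log2 fold change 1.74, adjusted p = 0.05002, limma). The other member called lower was Ighv4-1, the only member of family 4, with 2.42, 2.75 and 2.12 FPKM in the WT libraries, and 0.812, 0.399 and 1.72 in PGRN KO (-0.84 ± 0.23, adjusted p = 0.049). That call was lost when any library but PGRN KO replicate 6 was left out, with adjusted p-values from 0.092 to 0.14.

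**Figure D2:**
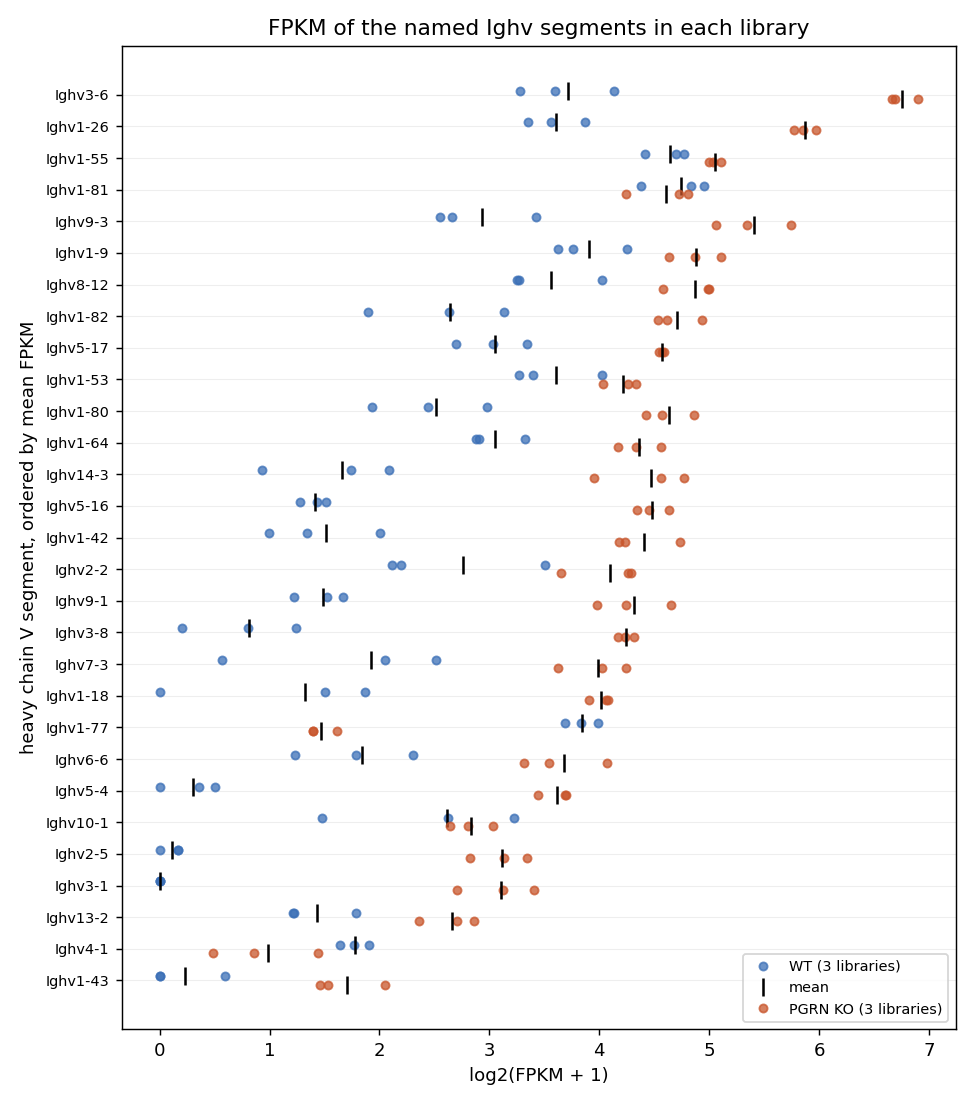
FPKM of 29 Ighv segments in each library on a log2(FPKM + 1) axis, with WT and PGRN KO libraries as points and the log2(mean FPKM + 1) of each genotype as a vertical tick, ordered by mean FPKM. Ighv3-6 reached 118.2 FPKM in PGRN KO, Ighv1-77 and Ighv4-1 lay higher in WT, and Ighv1-81 overlapped between genotypes.

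Families 2 and 5 were higher in PGRN KO by 5.22 and 5.62 as ratios of mean summed FPKM. All 6 members of family 2 and 7 of the 8 of family 5 were called higher. Of these, Ighv2-5, Ighv2-6, Ighv2-9, Ighv5-4 and Ighv5-12 averaged under 1 FPKM in WT and passed the rule through their PGRN KO values. Ighv5-16 was even across replicates, with 1.86, 1.42 and 1.69 FPKM in the WT libraries, and 19.3, 20.9 and 23.8 in PGRN KO, a log2 fold change of 3.07 ± 0.10 (SE; adjusted p = 1.9e-05, limma). Ighv5-4 had 0.416, 0.282 and 0 FPKM in the WT libraries, and 11.9, 9.85 and 11.97 in PGRN KO (3.32 ± 0.14). Ighv5-17, the most abundant segment of the family, had 7.28 ± 1.84 FPKM in the WT libraries, and 22.7 ± 0.42 in PGRN KO (SD, n = 3 each), with a log2 fold change of 1.54. In family 2, Ighv2-5 had a summed 2 fragments in WT and 206 in PGRN KO, the latter amounting to 7.66 ± 1.53 FPKM. Ighv2-2, the most abundant of family 2, had a wide spread in WT, with 10.4, 3.58 and 3.32 FPKM against 18.1, 11.6 and 18.5 in PGRN KO (1.46 ± 0.39, adjusted p = 0.044). That call was lost when any library but WT replicate 1 was left out (adjusted p = 0.073 to 0.13).

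Family 9 was divided. Ighv9-3, the third most abundant segment of PGRN KO, had 4.86, 9.74 and 5.32 FPKM in the WT libraries, and 39.6, 32.3 and 52.5 in PGRN KO, a log2 fold change of 2.50 ± 0.26 (SE; adjusted p = 0.0020, limma). Ighv9-1 rose from 1.80 ± 0.43 to 18.9 ± 4.75 FPKM (SD, n = 3 each). The remaining segments of the family, Ighv9-2 and Ighv9-4, had overlapping genotypes and log2 fold changes of -0.04 and -0.19. Ighv9-4 was called lower only in the fit without WT replicate 3. Ighv9-2 is the closest segment to both Ighv9-3 and Ighv9-1, at 94.3% and 95.7% identity.

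In the smaller families the direction was mostly upward. Family 14 went from 6.42 ± 3.18 to 39.2 ± 9.51 summed FPKM, with 3 of 4 members higher, led by Ighv14-3 with 3.25, 0.902 and 2.34 FPKM in the WT libraries, and 14.5, 26.4 and 22.6 in PGRN KO (2.84 ± 0.33). All 3 members of family 8 rose, and its leading segment Ighv8-12 went from 10.8 ± 3.83 to 28.2 ± 4.61 FPKM. Ighv14-4 and Ighv8-5, both called higher, averaged under 1 FPKM in WT and passed the rule through their PGRN KO values. Both members of family 6 and the only member of family 13 rose, with log2 fold changes of 1.87 for Ighv6-6 and 1.24 for Ighv13-2. Families 7 and 10 had 1 called member of 2 each. Ighv7-3 rose by 2.25 ± 0.48 (adjusted p = 0.022), a call lost without WT replicate 2 or PGRN KO replicate 5 or 6 (adjusted p = 0.052 to 0.076), whereas Ighv10-1 had 8.36, 5.18 and 1.79 FPKM in the WT libraries, and 7.18, 5.98 and 5.24 in PGRN KO, which overlapped.

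The V families made up different shares of the Ighv transcripts in the genotypes. Shares within a library do not depend on how libraries were scaled. Family 1 held 66.3%, 67.0% and 67.2% of Ighv FPKM in the WT libraries, and 49.6%, 48.8% and 49.5% in PGRN KO, a gap far wider than the spread within either genotype. Much of this fall lay in a few segments that led WT. Ighv1-81, Ighv1-55 and Ighv1-77 went from mean shares of 8.77%, 8.14% and 4.55% to 2.38%, 3.29% and 0.183%. Other members of the family gained share, among them Ighv1-26, from 3.79% to 5.89%. Family 3 went from 4.43% ± 1.49 to 13.6% ± 0.39 and family 5 from 6.17% ± 1.21 to 10.4% ± 0.36 (SD, n = 3 each). Most of the share of family 3 was Ighv3-6, with means of 4.18% in WT and 10.9% in PGRN KO. The other members of family 3 passed the rule through their PGRN KO values. The shares of family 2, from 3.50% to 5.53%, of family 9, from 4.46% to 6.53%, and of family 4, from 0.823% to 0.096%, also did not overlap between genotypes. Families 6, 7, 8, 10, 13 and 14 overlapped in share. Shares add up to the whole, so a larger share of some families lowers the others by construction.

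**Figure D3:**
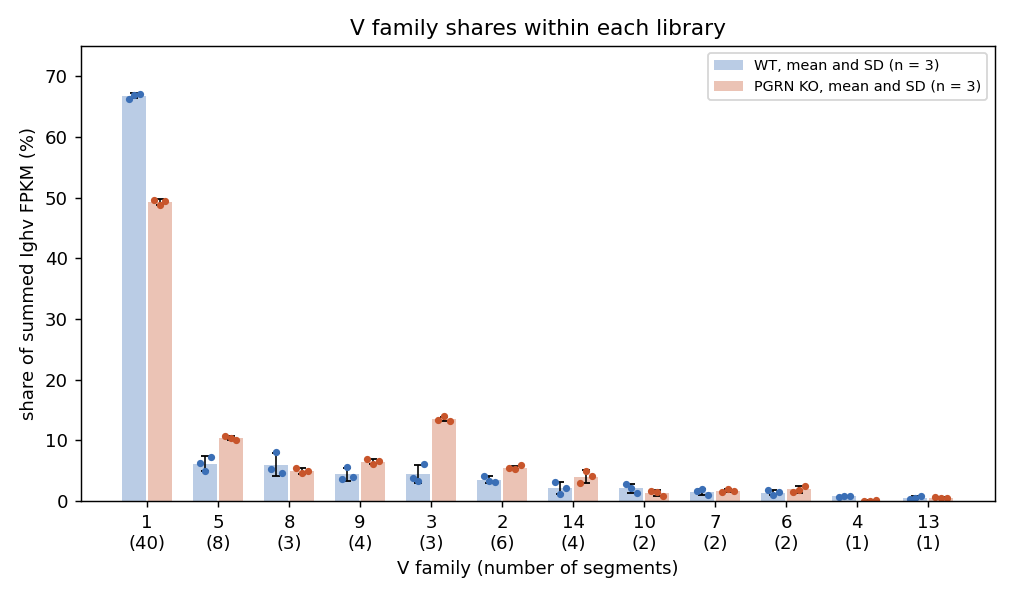
Share of summed Ighv FPKM held by each V family, in percent, with bars for the mean of 3 libraries, error bars for the SD and points for libraries, in WT and PGRN KO. Family 1 held 66.8% in WT and 49.3% in PGRN KO, and family 3 held 4.43% and 13.6%.

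Among the 76 members, transcripts were spread over more segments in PGRN KO, although the single leading segment held more. The effective number of segments, the inverse of the sum of squared shares, was 27.6, 31.4 and 25.5 in WT, and 33.2, 32.0 and 33.3 in PGRN KO. The top segment held 8.84% ± 1.75 of Ighv FPKM in the WT libraries, and 10.9% ± 0.52 in PGRN KO, and the top 10 held 48.7% ± 2.79 and 40.4% ± 0.32 (SD, n = 3 each). Reaching 50% of Ighv FPKM took 11, 12 and 10 segments in WT and 15 in each PGRN KO library. WT had fewer fragments per segment, and the part of that difference in depth was not tested. Another limit is that 21 members passed the rule through their PGRN KO values, which favours a wider spread there. With members of at least 5 FPKM, the effective number was 21.9 in WT and 23.4 in PGRN KO. With at least 0.1 FPKM it was 29.0 and 33.4.

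**Figure D4:**
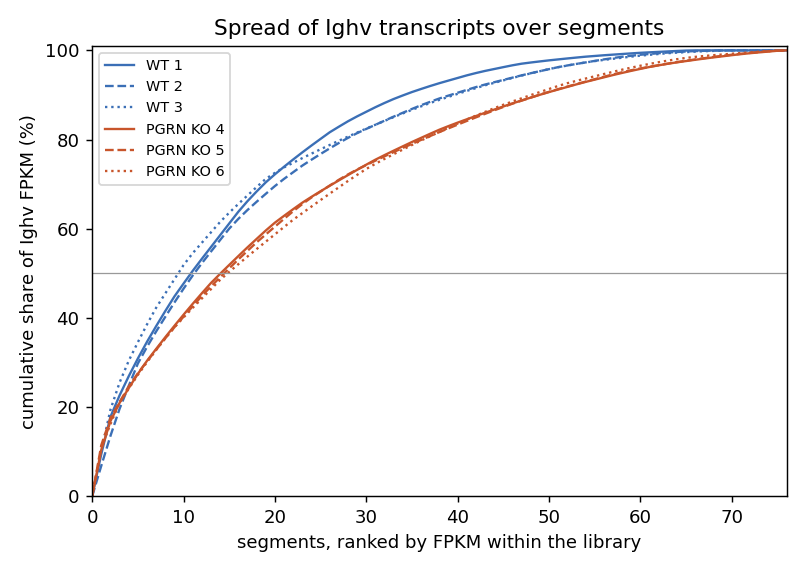
Cumulative share of Ighv FPKM, in percent, against the number of segments ranked by FPKM within each library, for 3 WT and 3 PGRN KO libraries, with a line at 50%. From the 10th segment on the WT curves lie above the PGRN KO curves, which nearly coincide.

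The leading segments were partly shared. Ighv1-26, Ighv1-55 and Ighv1-9 were in the top 10 of all 6 libraries. Ighv1-53, Ighv1-77 and Ighv1-81 were also in the top 10 of every WT library, and Ighv3-6, Ighv8-12 and Ighv9-3 in that of every PGRN KO library. Libraries of a genotype shared 7 to 8 of their top 10 in WT and 6 to 7 in PGRN KO, and libraries of different genotypes shared 5 to 6. Across the 76 segments, Pearson's r of log2(share + 0.1) was 0.74 to 0.78 between WT libraries, 0.91 to 0.93 between PGRN KO libraries and 0.47 to 0.59 across genotypes, as a description over segments, which are not independent replicates. PGRN KO libraries held more fragments per segment than WT libraries, and the part of depth in these correlations was not tested.

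Along the locus, the segments near the D segments held a larger share in PGRN KO. The members span 2.41 Mb of chromosome 12 (113588267 to 116000461 on GRCm38), all on the minus strand, and were divided by order into parts of 26, 25 and 25 segments. The D-proximal part held 21.8%, 20.04% and 24.3% of Ighv FPKM in the WT libraries, and 38.9%, 40.9% and 39.9% in PGRN KO. The middle part went from 24.9% ± 0.032 to 28.8% ± 0.59 and the distal part from 53.1% ± 2.13 to 31.3% ± 0.40 (SD, n = 3 each). The genotypes did not overlap in any part. Ighv1-81, Ighv1-55 and Ighv1-77, whose shares fell as given above, all lie in the distal part and made up much of its fall. In number of calls the parts were closer, with 21 of 26, 21 of 25 and 15 of 25 segments higher, and median log2 fold changes of 2.07, 1.75 and 1.32. In each part, some of these calls fell on members that passed the rule through their PGRN KO values. Family and position go together on this locus, since no member of family 1 and every member of families 2, 5 and 14 lay in the D-proximal part, and their roles cannot be told apart here.

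**Figure D5:**
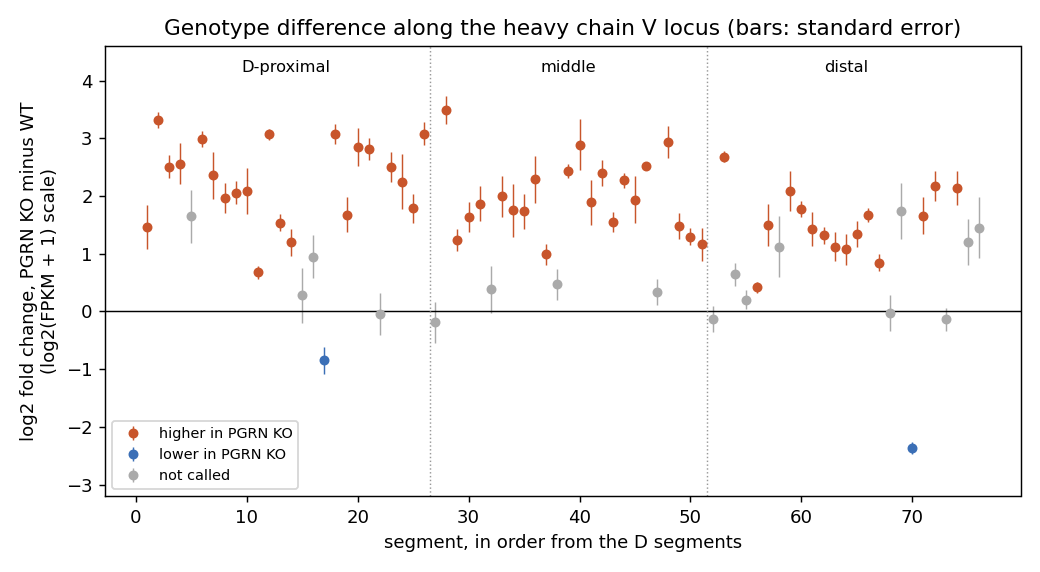
Log2 fold change of PGRN KO minus WT on the log2(FPKM + 1) scale, with standard errors, for 76 Ighv segments in order from the D segments, colored by the limma call, with dotted lines between the 3 parts of the locus. Segments called higher occur in every part, 21, 21 and 15 of them, and Ighv1-77 is the lowest point at -2.37.

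The constant genes of the same locus differed in class as well as in amount. The 8 heavy chain constant genes summed to 199.0 ± 16.1 FPKM in the WT libraries, and 1019 ± 85.6 in PGRN KO (SD, n = 3 each), a ratio of 5.12, so the ratio of Ighv to constant FPKM was 1.48 ± 0.054 in WT and 0.961 ± 0.054 in PGRN KO. Of 7 tested, Ighg1, Ighg2b, Ighg2c and Igha rose and Ighm fell. Ighg2c, a class of IgG induced by interferon in mice, made up 13.02% ± 0.24 of constant FPKM in the WT libraries, and 38.5% ± 2.63 in PGRN KO. Igha, the class of mucosal antibody, went from 56.8% ± 0.51 to 26.5% ± 2.94, although its level rose from 113.1 ± 9.06 to 268.2 ± 15.1 FPKM. Ighm, the class expressed before switching, had 18.8, 17.4 and 16.4 FPKM in the WT libraries, and 5.64, 7.44 and 8.44 in PGRN KO (-1.19 ± 0.13, adjusted p = 0.0022, limma). Of 4 light chain constant genes, 2 were higher and 2 did not pass the test. The kappa gene Igkc went from 414.8 ± 6.81 to 2224 ± 139.5 FPKM, and the lambda gene Iglc3 from 1.396 ± 0.29 to 2.54 ± 0.30. Iglc1, at 19.8 ± 9.19 and 26.7 ± 2.80 FPKM, overlapped between genotypes (adjusted p = 0.31, limma). Iglc2 had 15.2, 17.7 and 17.4 FPKM in the WT libraries, and 8.79, 12.2 and 14.6 in PGRN KO, which did not overlap (-0.49 ± 0.17, adjusted p = 0.091).

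Genes of the antibody-secreting state rose in part. Of 10 plasma cell markers, 5 were higher and 1 lower. Jchain, which joins IgA and IgM into polymers, had 22.2, 22.5 and 21.4 FPKM in the WT libraries, and 63.0, 75.8 and 77.2 in PGRN KO (1.66 ± 0.08, adjusted p = 0.00014, limma). Mzb1, a chaperone of antibody assembly, went from 1.04 ± 0.18 to 4.95 ± 0.46 FPKM. Derl3 and Pou2af1 also rose at low levels, from 0.188 to 0.917 and from 0.217 to 1.27 FPKM. Tnfrsf17 was called higher from 0 fragments in WT to 12 in PGRN KO, so it could be tested only through its PGRN KO values. Prdm1, a transcription factor of plasma cells that other cells express too, fell, and Xbp1, Irf4, Sdc1 and Txndc5 did not pass the test. Of 3 genes on the octamer factor list, Pou2af1, already counted above, was the only one called. Pou2f1 and Pou2f2, which encode factors that bind V promoters, did not pass. Pou2f2 was lower in PGRN KO, at 6.56 and 5.09 FPKM, and did not overlap between genotypes.

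Genes of V(D)J recombination were near 0. Rag1 and Rag2, the recombinase, and Dntt, which adds bases at the joints, held between 0 and 2 fragments over the 3 libraries of either genotype, and so did the surrogate light chain genes Vpreb1, Vpreb2 and Igll1. Of 8 genes on the pre-B cell and recombination list, 2 were tested. Vpreb3 was called higher from 0 fragments in WT to 11 in PGRN KO, so it could be tested only through its PGRN KO values. Il7r fell from 10.2 ± 0.42 to 5.93 ± 0.88 FPKM. Of 5 hypermutation and germinal centre genes, Bcl6 fell from 32.1 to 22.6 FPKM and S1pr2 from 19.3 to 14.4. These levels are above that of the whole summed B cell list, and which cells expressed the 2 genes was not tested. Mef2b rose, at 0.255 FPKM in PGRN KO, from 2 fragments in WT to 20, and could likewise be tested only through its PGRN KO values. Of 7 T cell markers, Cd3d, Trac and Lck were tested and did not pass, with adjusted p-values of 0.52 to 0.69 by limma.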

How the data were processed

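The deposited table gives, for 6 neutrophil libraries, FPKM values that the authors computed after trimming, mapping and counting fragments per gene. The study's methods name HISAT and HTSeq, whereas the submitters' processing notes name HISAT2 2.0.5, featureCounts 1.5.0-p3, DESeq2 1.20.0 and GRCm38, and how fragments fitting several segments were treated is not stated. All values above 0 were whole multiples of what 1 fragment is worth, within 0.01, which gave the depth of 17087344 to 18821091 fragments. A fragment in a segment of 351 bases was worth 0.145 to 0.171 FPKM. The floor of 3 fragments covers counting error only, and each ± value is an SD between libraries or the SE of the limma fit.

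From the deposited FPKM, log2(FPKM + 1) was compared between genotypes with limma 3.58.1 (lmFit, eBayes with trend) in R 4.3.3, in two-sided tests adjusted by Benjamini-Hochberg over the 14807 genes that averaged 0.1 FPKM or more. On this scale the change of a low gene is understated. On simulated data the fit called 141 genes, recovering 133 of 192 changed genes with 8 false calls. The simulated spread between replicates was a fixed setting, not taken from the Ighv segments, so this does not show how the fit performs for them. Sums, shares and effective numbers are descriptions without a test. Identities and windows came from GENCODE M21 transcripts, in which all 185 Ighv rows had the same start and end, with Biopython 1.88.

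The members and gene lists were chosen with earlier results of these data known. Members are named if they were among the 12 with the highest mean, the 10 with the largest increases, the 5 with the largest decreases (2 were called), the highest of each family, or next to the limit of 1 FPKM. Any other member named was chosen after its values were seen. The lists cover neutrophil, B cell, plasma cell, pre-B cell, germinal centre and T cell genes, octamer factors, and heavy J and constant and light constant genes. Alternatives were 2 other pseudocounts, 2 filters, 3 scalings, voom on recovered fragments, robust eBayes, other rules for members and each library left out. The promoters and recombination signals of the V segments were not analysed here.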

Additional observations from a re-analysis of the deposited data

How the results depend on the processing

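The count of members higher in PGRN KO, 57, ran from 49 with every gene above 0 tested to 64 with voom on fragments, and from 46 to 55 with 1 library left out. The count lower, 2, was 1 with a pseudocount of 0.1 or 0.5, with every gene above 0, with plain totals of fragments and with robust eBayes, because the adjusted p of Ighv4-1 lay near 0.05. It was 1 to 2 with 1 library left out. Without WT replicate 3, Ighv4-1 was not called (adjusted p = 0.092 by limma), and the call beside Ighv1-77 fell on Ighv9-4. Ighv1-77 was called lower in every alternative. Of the 59 calls, 43 held in all 6 fits that left out a library. Leaving out PGRN KO replicate 5 lost 13 calls and PGRN KO replicate 6 lost 10. No called member changed sign. Ighv1-81, not called, ran from -0.31 to 0.039 with a library left out, positive without PGRN KO replicate 5, and Ighv10-1, not called, from -0.10 without WT replicate 3 to 0.77. Scaling to plain totals shifted PGRN KO by 0.12 on the log2 scale. The ratio of summed FPKM was 3.61 with fragments and 3.15 to 3.47 with a library left out. With members of at least 5 FPKM, the effective number was 21.9 in WT and 23.4 in PGRN KO, and family 1 held 70.8% in WT and family 3 15.4% in PGRN KO, from fewer segments. With fragments, the effective number in PGRN KO was 33.98 and family 1 held 67.3% in WT. With the Ighv pseudogene of at least 1 FPKM added, family 1 held 66.0% in WT. Rules for members by the WT mean alone and by all Ighv segments tested were added after seeing the data and gave 38 and 60 higher. No paired analysis was possible because the replicate numbers are not shared between genotypes. Depth limits segments under 1 FPKM, which rest on a few fragments.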

Other observations

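Of 70 rows for Ighv pseudogenes, 6 were above 0 and 1 averaged at least 1 FPKM. That segment, Ighv8-10, had 3.12, 3.01 and 4.24 FPKM in the WT libraries, and 2.19, 0.923 and 0.853 in PGRN KO, on 63 and 26 fragments over 3 libraries each. The genotypes did not overlap, and it was lower in PGRN KO by limma (log2 fold change -0.98, adjusted p = 0.028), while the 3 members of family 8 were higher. Reads from similar segments could be assigned to it, which was not tested.

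The D and J segments were almost without fragments. Of 19 D segment rows, 1 was above 0, with 1 fragment in each genotype. The J segments held 6 fragments in WT and 11 in PGRN KO over 3 libraries each, on 3 of 4 rows.

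Among segments below the limit of 1 FPKM, Ighv12-3, Ighv3-5 and Ighv3-3 were at 0 in every WT library and above 0 in every PGRN KO library, and were the 3 called higher, with adjusted p of 0.034, 0.013 and 0.029 by limma. They were chosen here after their values were seen. Their means in PGRN KO were under 1 FPKM, so each rests on few fragments. A segment at 0 in WT could reach the minimum for testing only through PGRN KO, so these calls say nothing about a V family as a whole. Ighv3-4, also below the limit, had 0, 0.340 and 0 FPKM in the WT libraries, and 0.476, 0.468 and 1.59 in PGRN KO, which did not overlap and did not pass the test (adjusted p = 0.10).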
